A study of Mus musculus with 74 samples.

Results

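The centromere-proximal ends of the 19 mouse autosomes were examined, taken as the 1-kb windows from 3.0 to 6.0 Mb of each autosome in the mm10 assembly, which gave 57000 of the 2462755 autosomal windows. Every autosome was given the same 3 Mb, and windows entered by position and not by their own coverage, although the region was picked with earlier results of these data known. H3K9me3 had been profiled by ultra-low-input native ChIP-seq in donor cumulus cells (CC), in embryos made from them by somatic cell nuclear transfer (SCNT) and in fertilized zygotes. The 8 SCNT stages were 6 and 14 h post activation (6 hpa and 14 hpa, both 1-cell), 2-cell, 4-cell, 8-cell, morula, and, cut apart by micromanipulation from E4 blastocysts, trophectoderm (TE) and inner cell mass (ICM). The fertilized stage was the PN5 zygote, a late 1-cell embryo. Cumulus cells and recipient oocytes came from B6D2F1 females (C57BL/6 crossed with DBA/2), and the reconstructed embryos were activated with strontium chloride in the presence of cytochalasin B, whereas the fertilized zygotes came from C57BL/6 parents on both sides, and the PN5 libraries came from an earlier study, so strain, route of making the embryo and study cannot be told apart in any comparison of PN5 with CC or the SCNT stages.

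Each stage was represented by 1 peak list called by the authors on pooled replicates over pooled input, from 41 H3K9me3 and 33 input libraries (2 to 7 H3K9me3 libraries for a stage). With 1 list for each stage there is no replicate spread, no test between stages was possible, and all values below describe these lists. The readout was the covered share, the percentage of assembled bases that lay inside merged peaks, and a window was called marked when at least 50% of its bases were covered. Intervals are 95% intervals that count each 1 kb as an independent unit. They cover counting error only and are too narrow, because 1 peak often spans several windows.

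Mouse autosomes are telocentric, which places the centromere at the very start of the chromosome, next to a telomere. The centromere itself is built on minor satellite repeats and is flanked by long arrays of major satellite, which carry H3K9me3 laid down by SUV39H1 and SUV39H2 and bound by HP1, and which fuse into the chromocenters seen in somatic nuclei. In the early zygote such arrays are organised differently on the maternal and paternal chromosomes before chromocenters form. In the assembly these arrays are gaps: no autosome had a base before 3.0 Mb, 13 of 19 began at exactly 3000001 and the latest at 3100001. The windows from 3.0 to 6.0 Mb are thus the first sequence after the satellite gap, not the satellite itself, apart from a remnant on chromosome 9.

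That remnant was visible in the letters. Windows were searched for tandem repetition as the lag of 20 to 400 bases at which a window best matched itself, and 80 of 56491 end windows matched at 75% or more (0.142%, against 0.0855% of 23398 windows sampled from the rest). The commonest lags were 22 bases, in 15 windows on 4 autosomes, and 234 bases, in 15 windows that all lay on chromosome 9 between chr9:3000001-3038000. A lag of 234 bases is the known unit length of mouse major satellite. The first unit below, from its best-matching window, is printed with capitals at the 206 of 234 bases that recur 1 unit further on. The other 3 sequences are 300-base pieces from the middle of the longest stretch with under 10% repeated words that was covered in all 10 lists, of the longest CC peak on chromosome 14, and of the longest stretch covered in CC, 6 hpa, 14 hpa and 2-cell but free of PN5 peaks. They are printed as single examples and need not be typical of their class. In them capitals mark each block of 100 bases that occurs more than once in the assembled chromosomes. All are read on the plus strand of mm10 (GRCm38).
chr9:3027001-3027234: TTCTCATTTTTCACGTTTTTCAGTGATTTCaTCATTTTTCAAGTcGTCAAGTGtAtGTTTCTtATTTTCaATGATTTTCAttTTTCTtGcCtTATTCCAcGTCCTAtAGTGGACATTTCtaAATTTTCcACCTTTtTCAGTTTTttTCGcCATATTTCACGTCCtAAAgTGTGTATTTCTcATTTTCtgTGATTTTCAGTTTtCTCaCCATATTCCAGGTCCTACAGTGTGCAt
chr16:3650301-3650600: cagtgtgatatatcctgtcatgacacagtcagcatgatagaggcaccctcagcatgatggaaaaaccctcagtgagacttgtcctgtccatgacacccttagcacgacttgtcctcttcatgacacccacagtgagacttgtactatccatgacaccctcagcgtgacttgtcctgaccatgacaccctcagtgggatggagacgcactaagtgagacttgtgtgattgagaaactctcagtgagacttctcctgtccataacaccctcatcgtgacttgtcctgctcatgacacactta
chr14:5301101-5301400: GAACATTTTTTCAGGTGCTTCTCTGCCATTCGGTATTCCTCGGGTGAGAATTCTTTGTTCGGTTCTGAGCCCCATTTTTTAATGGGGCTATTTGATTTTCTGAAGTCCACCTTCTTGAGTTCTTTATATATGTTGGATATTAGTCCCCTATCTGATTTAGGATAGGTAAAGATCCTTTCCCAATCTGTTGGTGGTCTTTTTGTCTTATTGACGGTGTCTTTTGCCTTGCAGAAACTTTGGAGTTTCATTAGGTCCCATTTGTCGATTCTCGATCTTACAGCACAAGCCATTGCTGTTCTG
chr11:3139301-3139600: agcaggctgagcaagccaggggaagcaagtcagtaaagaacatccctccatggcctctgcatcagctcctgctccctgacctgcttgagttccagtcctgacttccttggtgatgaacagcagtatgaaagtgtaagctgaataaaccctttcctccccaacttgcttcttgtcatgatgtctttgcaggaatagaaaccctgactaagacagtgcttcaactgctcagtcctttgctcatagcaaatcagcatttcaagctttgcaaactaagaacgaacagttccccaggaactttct

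The chromosome 9 unit lies in an intron of the gene model Gm10717. The chromosome 16 piece is intergenic and each of its 3 blocks occurs once in the assembly, yet it was covered from end to end in all 10 lists. The 3 blocks of the intergenic chromosome 14 piece occur 2, 5428 and 1329 times, and the piece was covered whole in CC, 26.3% in 4-cell and 6.33% in PN5, with no covered base in the other 7 lists. It is not typical of that end, where the median 100-base word occurs 5 times. The CC peak around it was 34.9% covered at 6 hpa and 71.5% at 14 hpa. The chromosome 11 piece lies in an intron of Sfi1, a gene for a centrin-binding centrosome protein, occurs once, and was covered whole in CC, 6 hpa, 14 hpa, 2-cell and 4-cell and not at all in the other 5 lists.

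Over all assembled windows, the ends had a larger covered share than the rest of the same autosomes in every list, and the ratio was largest in the donor cells. The following comparisons were chosen after seeing the data. The ratio was below 1 in all 10 lists when only end windows without a repeated 100-base word were kept (0.687 to 0.929). That filter left the rest as it was, and marked end windows held more repeated words, so the sides are not alike. Without chromosome 14 and the first 500 kb, the ratio was below 1 in 4 lists, 6 hpa, 4-cell, 8-cell and PN5 (0.884 to 0.941). In CC, 17.2% of the end bases were covered against 8.66% of the rest, a ratio of 1.98 (1.95 to 2.02). At 6 hpa both fell, to 9.19% and 5.69%, and the ratio was 1.61 (1.57 to 1.66). At 14 hpa the ends were at 14.6% and the rest at 8.48%, a ratio of 1.72 (1.68 to 1.76). The 1-cell lists thus had less covered end sequence at 6 hpa than the donor list and more again at 14 hpa. At 2-cell the ends were at 7.98% against 5.05% (ratio 1.58), at 4-cell 8.15% against 6.49% (1.26), and at 8-cell 8.49% against 6.99% (1.21), the lowest ratio of the 10 lists. The ratio was higher again in the morula, with 10.6% against 7.79% (1.36), in the ICM, with 9.53% against 6.36% (1.5), and in the TE, with 8.52% against 6.00% (1.42). The PN5 zygote, at 7.55% against 5.33% (1.42), had the smallest covered share of end sequence of all lists.

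Counted by windows the picture was the same. In CC 9332 of the 56491 end windows with sequence were marked (16.5%), where 8.05% of the windows outside the ends were. The end shares at 6 hpa, 14 hpa and 2-cell were 8.12%, 14.0% and 7.23%, beside backgrounds of 4.87%, 7.98% and 4.57%. From 4-cell to morula they were 7.41%, 7.41% and 9.62%, beside 5.91%, 6.07% and 6.93%. The ICM, TE and PN5 shares were 8.91%, 7.86% and 6.99%, beside 5.75%, 5.33% and 4.77%. A total of 27.7% of the end windows were marked in at least 1 list, against 20.6% of the rest, and 752 end windows (1.33%) were marked in all 10 lists, against 0.574% of the rest.

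The excess was not even over the chromosomes. The end was covered more than the rest of its own autosome in 13 of 19 autosomes in CC, 15 at 6 hpa, 13 at 14 hpa, 15 at 2-cell, 13 at 4-cell, 10 at 8-cell, 12 in the morula, 14 in the ICM, 15 in the TE and 11 in PN5. The covered share of an end was 17.1% ± 17.8 (SD over 19 autosomes) in CC, 7.54% ± 7.92 in PN5 and 8.51% ± 2.75 in TE. Without chromosome 14 the values were 13.5% ± 8.40 in CC, 8.42% ± 2.80 in TE and 5.75% ± 1.34 in PN5 (SD over 18 autosomes), so the large spread in PN5 came with that chromosome. In CC the 3 highest ends were those of chromosomes 14, 7 and 1, with 82.3%, 34.5% and 27.2% of bases covered. The 3 lowest were those of chromosomes 17, 2 and 19, with 2.78%, 4.10% and 5.22%. The end of chromosome 17 lay below its rest in all 10 lists, and its CC ratio of 0.322 was the lowest. The end of chromosome 12 also lay below its rest in all 10 lists, with ratios of 0.783 in CC and 0.893 in PN5. That of chromosome 5 did so in 8 lists, with 0.59 in CC and 0.75 in PN5, and was above its rest in the ICM and TE, with 1.19 and 1.05.

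**Figure D1:**
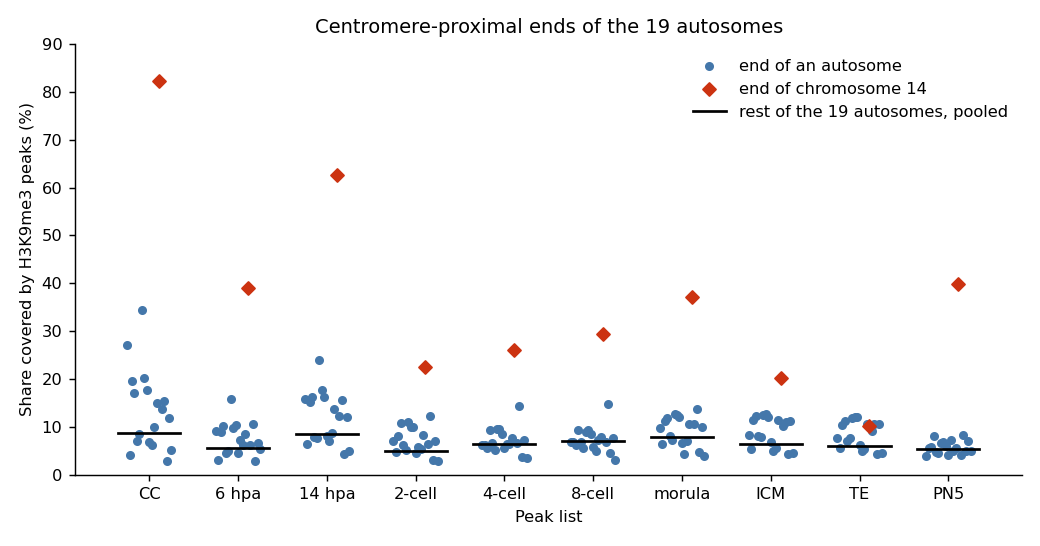
Share of assembled bases covered by H3K9me3 peaks (y axis, %) in the first 3 Mb of each autosome, for the 10 peak lists (x axis). Each point is the end of 1 autosome, the diamond is chromosome 14 and the line is the pooled rest of the 19 autosomes. Chromosome 14 stands at 82.3% in CC and 39.8% in PN5 but at 10.1% in TE, among the other ends.

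Chromosomes 1 and 16 followed different courses. The chromosome 1 end stood at 27.2% in CC. It was at 9.11% by 6 hpa, 15.9% by 14 hpa, 7.01% by 2-cell and between 6.18% and 9.76% from 4-cell to TE, and its 3.93% in PN5 was the lowest of the 19 ends in that list. Its rest was at 5.85% in CC. The chromosome 16 end stood at 15.3% in CC, with 10.7% by 6 hpa and 15.5% by 14 hpa, and it held 12.3%, 14.3% and 14.8% at 2-cell, 4-cell and 8-cell, the highest ends after chromosome 14 in these 3 lists. Its PN5 share was 8.23%, and its ratio to its own rest ran from 1.94 in PN5 to 3.34 at 2-cell.

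Because chromosome 14 alone held 25.5% of all peak length in the ends in CC and 28.0% in PN5, each pooled value was recomputed without it, a choice made after seeing the data. The ratio then was 1.56 in CC, 1.31 at 6 hpa, 1.40 at 14 hpa, 1.41 at 2-cell, 1.10 at 4-cell, 1.04 at 8-cell, 1.17 in the morula, 1.40 in the ICM, 1.40 in the TE and 1.08 in PN5. The TE ratio hardly moved, and the 8-cell and PN5 ratios came close to 1. The end of chromosome 14 made up 6.33% of the TE peak length in the ends, near its 5.31% of the bases.

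Within the other 18 ends the mark was concentrated at the very start. In the first 500 kb, 33.8% of bases were covered in CC, 3.90 times (3.78 to 4.02) the share in the rest of these autosomes, while the following 2.5 Mb had 9.67%, a ratio of 1.12 (1.09 to 1.15). The ratio of the first 500 kb was 3.24 at 6 hpa, 3.06 at 14 hpa, 3.17 at 2-cell, 2.01 at 4-cell, 1.76 at 8-cell, 1.965 in the morula, 2.48 in both the ICM and the TE and 2.11 in PN5. The first 500 kb were covered more than the rest of the chromosome in 16 of 18 autosomes in CC, 17 in 6 hpa, 14 hpa, 2-cell and PN5, and 13 in both 4-cell and 8-cell. For the following 2.5 Mb the ratio was below 1 in 4 lists, with 0.941 at 6 hpa, 0.922 at 4-cell, 0.907 at 8-cell and 0.884 in PN5. It was 1.09 at 14 hpa, 1.08 at 2-cell, 1.01 in the morula and 1.20 in the ICM and 1.19 in the TE, the blastocyst lists being the highest. In CC only 8 of the 18 autosomes were above their rest there. The pooled excess of the ends outside chromosome 14 therefore lay mainly in the first 500 kb, which held 15.96% of the bases and 39.9% of the CC peak length of these 18 ends.

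**Figure D2:**
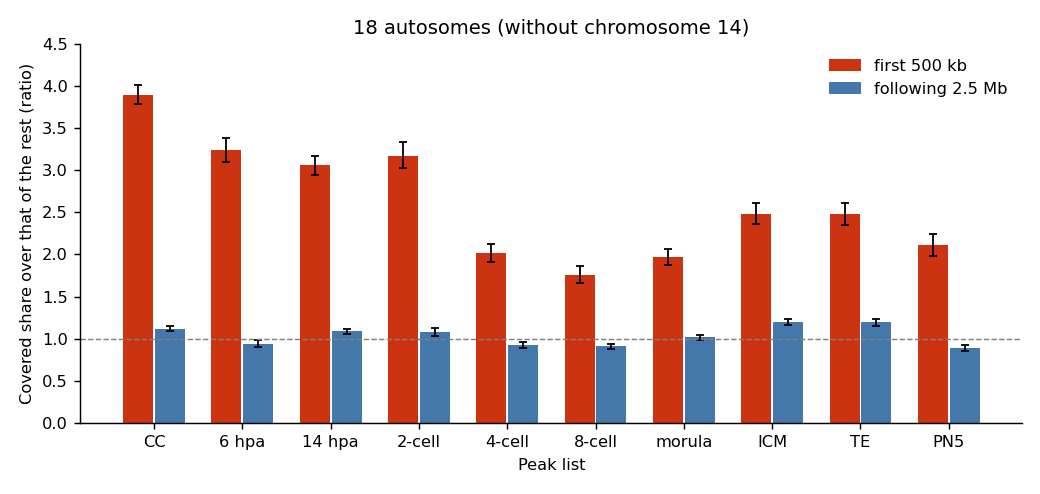
Covered share relative to the rest of the same 18 autosomes (y axis, ratio) in the first 500 kb and in the following 2.5 Mb of their ends, for the 10 peak lists (x axis). Error bars are 95% counting intervals and the dashed line marks a ratio of 1. The first 500 kb reach 3.90 in CC and 1.76 at 8-cell, while the following 2.5 Mb stay between 0.884 and 1.20.

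In 100-kb steps over all 19 ends, the first step was covered at 66.2% in CC, the second at 49.8%, the third at 30.2%, the fourth at 23.6% and the step from 0.4 to 0.5 Mb at 17.8%. In the next step CC was at 12.1%. The same steep start was seen in every list: the first step was at 35.1% at 6 hpa, 48.8% at 14 hpa, 30.8% at 2-cell, 23.8% at 4-cell, 22.3% at 8-cell, 29.8% in both the morula and the ICM, 27.4% in TE and 25.3% in PN5. A total of 17 autosomes had sequence in that step. Their covered share ran from 27.0% on chromosome 2 to 94.5% on chromosome 7 in CC, with a median of 67.4% and 13 autosomes over 50%. In PN5 it ran from 1.48% on chromosome 13 to 65.6% on chromosome 9, with a median of 21.2% and only chromosome 9 over 50%. The chromosome 9 step, which holds the satellite remnant, was over 50% in 9 lists and at 48.2% at 8-cell. Further along the chromosomes, the windows from 6.0 to 9.0 Mb were covered at 13.0% in CC and 6.05% in PN5, and the last 3 Mb of each autosome at 8.66% and 5.02%, so in these 2 lists the distal ends were close to the rest. The windows from 6.0 to 9.0 Mb include more of chromosome 14 (described next). At 4-cell and 8-cell, on the other hand, the last 3 Mb (8.68% and 8.97%) were covered more than the first 3 Mb.

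**Figure D3:**
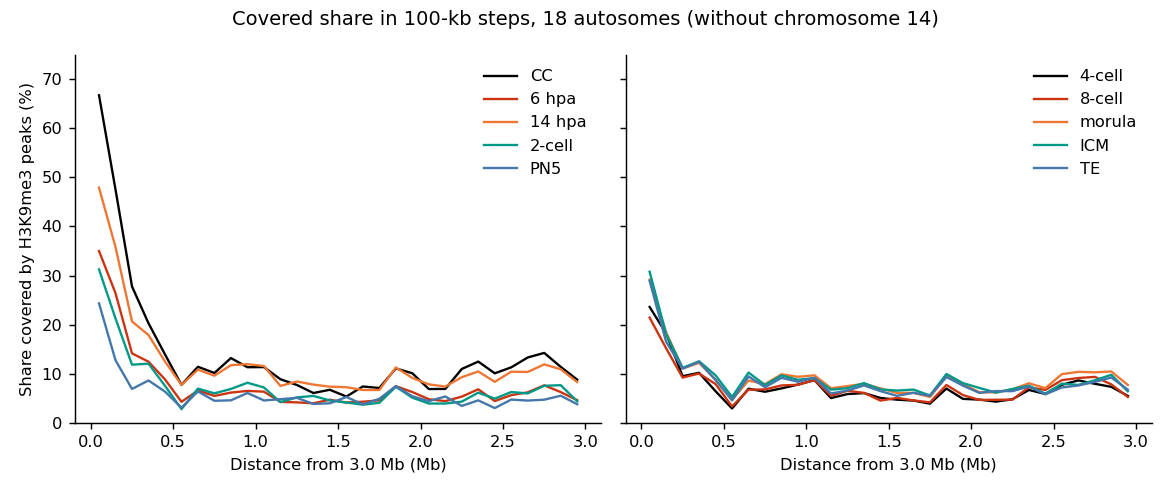
Covered share (y axis, %) in 100-kb steps against distance from 3.0 Mb (x axis, Mb), pooled over 18 autosomes without chromosome 14, with 5 lists in each panel. All 10 lists are highest in the first steps and level off within about 0.5 Mb.

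Chromosome 14 did not follow this gradient. Its covered share in CC was between 78.8% and 86.5% in each 500-kb step of the first 3 Mb, remained at 81.4% and 71.0% in the 2 steps after that, and dropped to 25.3% and then 2.00% in the steps from 4.5 to 5.5 Mb past 3.0 Mb. The unbroken run of 100-kb steps with at least 25% CC coverage was chr14:3000001-7700000. Across the 3-Mb end the lists stood at 82.3% in CC, 39.0% at 6 hpa, 62.6% at 14 hpa, 22.4% at 2-cell, 26.1% at 4-cell, 29.3% at 8-cell, 37.2% in the morula, 20.2% in the ICM, 10.1% in the TE and 39.8% in PN5. The rest of chromosome 14 was near the other autosomes, with 8.74% in CC and 5.53% in PN5. From CC to TE the covered share of the end was multiplied by 0.123, against 0.623 for the other 18 ends and 0.693 for the rest of the autosomes. Peaks here were long in the donor and short in the blastocyst: their median width was 3158.5 bases in CC, 816 at 6 hpa, 1595.5 at 14 hpa, 641 at 2-cell and 479 in the TE, and 72 of the 161 CC peaks of 10 kb or more in the ends lay on chromosome 14, but none in the TE. The median fold enrichment over input of these peaks was 2.83 in CC and 2.84 in the TE, and the number of peaks was 440 in CC, 986 at 6 hpa and 395 in the TE. CC and TE thus differed far more in peak length than in number, and fold is known only where the caller found a peak.

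**Figure D4:**
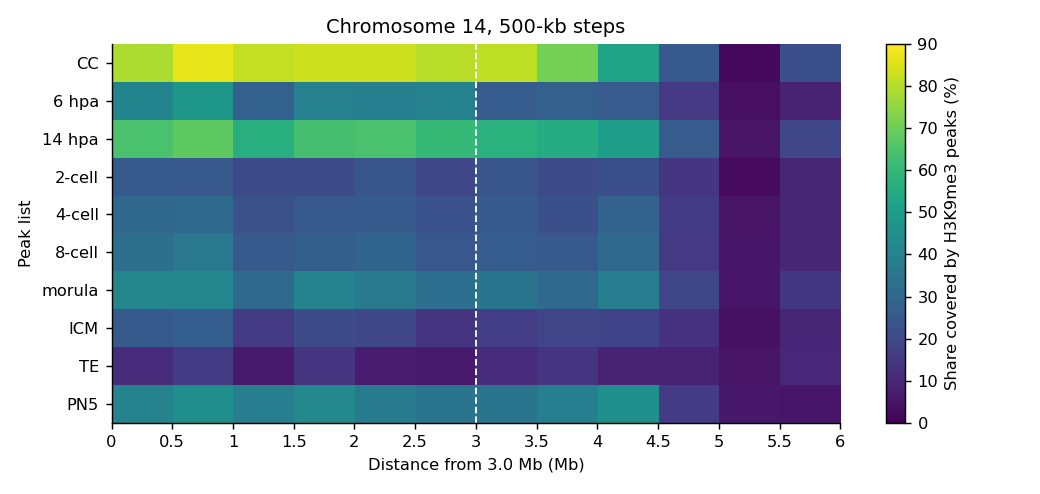
Covered share (colour, %) on chromosome 14 in 500-kb steps from 3.0 Mb (x axis, Mb) for the 10 peak lists (y axis). The dashed line marks the end of the first 3 Mb. CC stays above 70% for 4 Mb, and all lists are under 6% in the step from 5 to 5.5 Mb.

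The same end was also set apart by its sequence. To see how often a read could fit at several places, 100-base words were taken every 100 bases in the ends and every 5000 bases elsewhere and counted on both strands of the assembled chromosomes. On the chromosome 14 end 83.7% of the words occurred more than once, against 8.11% in the rest of chromosome 14, and between 1.57% and 13.9% on the other 18 ends. Of the repeated words of that end, 93.0% had a further copy within the same 3 Mb and 92.9% had all their copies on chromosome 14. On the other 18 ends between 2.84% (chromosome 3) and 37.4% (chromosome 7) of the repeated words had all copies on their own chromosome, with a median of 8.61%. How reads with several equal placements were treated is not given in the sources used here, and their part in the result was not tested. Over all ends, 40.7% of the words in windows marked in CC were repeated against 5.04% in unmarked windows, and without chromosome 14 the shares were 24.9% and 4.18%. When only the 44100 end windows without any repeated sampled word were kept, the ratio to the rest was below 1 in all 10 lists, between 0.687 at 8-cell and 0.929 in CC, with 0.767 in PN5. That comparison was chosen after seeing the data, and it leaves repeated windows in the rest, so the sides are not alike. Marked end windows hold more repeated words, so a filter on the ends alone lowers their covered share. This count therefore cannot place the excess, and how the excess arose was not tested.

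Other properties of the ends differed less. Their GC content was 42.1% against 41.9% in the rest, and their soft-masked share, the bases the assembly flags as interspersed or simple repeats, was 40.03% against 33.3%. The first 200 kb were 51.7% soft-masked, with 29.6% of words repeated. Over the 18 ends other than chromosome 14, the CC share of an end went with its soft-masked share (Pearson r = 0.82, Spearman rho = 0.91, a description over chromosomes of 1 list), whereas in PN5 the same values were 0.15 and 0.19. In the SCNT lists rho ran from 0.51 at 4-cell to 0.89 at 14 hpa and in the ICM. In the rest of these autosomes the CC value of rho was 0.12. The share of repeated words went with the CC share in both parts, with a rho of 0.76 in the ends and 0.65 in the rest. Marking also depended on GC class in the lists: among end windows under 35% GC, 7.11% were marked in CC but 0.477% at 6 hpa, and among those of 50% GC or more, 13.9% were marked in CC and 19.5% at 6 hpa. The corresponding shares outside the ends were 3.24% and 0.0931%, and 7.97% and 14.7%.

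The question of what became of the donor mark was followed by windows. Of the 9332 end windows marked in CC, 62.6% (61.6 to 63.5) were unmarked at 6 hpa, against 63.7% in the rest, so on this count the ends lost the mark about as often as other sequence. Donor windows with the mark at 14 hpa made up 59.4% (55.7% in the rest), and at 2-cell 31.2% (31.2%). Without chromosome 14 these shares were 63.1% unmarked at 6 hpa, 56.9% marked at 14 hpa and 34.6% at 2-cell. Of the CC windows unmarked at 6 hpa, 45.2% were marked at 14 hpa, against 40.2% in the rest, and the share was 59.0% on chromosome 14 and 40.4% on the other ends. A total of 21.2% of the CC windows were marked at 6 hpa, 14 hpa and 2-cell alike, the same as in the rest. That pooled value hides a split, with 13.2% on chromosome 14 and 24.1% on the other ends.

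The later stages separated chromosome 14 from the other ends. Of its 2453 CC windows, 38.8% were marked at 6 hpa, 66.2% at 14 hpa, 21.6% at 2-cell, 26.05% at 4-cell, 28.0% at 8-cell, 37.7% in the morula, 20.5% in the ICM and 9.34% in the TE. On the other 18 ends 37.9% were marked in the morula, 40.1% in the ICM and 38.2% in the TE. The ICM and TE, which shared most of their marked windows elsewhere in the ends (74.2% of ICM windows were marked in TE without chromosome 14), shared 33.2% on chromosome 14, where 358 of the 536 ICM windows were unmarked in TE. In the other direction, 73.3% of the 243 TE windows of that end were marked in ICM, against 79.5% on the other ends, so the 2 directions differ with the lower number of TE windows there. In the overlap of covered bases (bases in both lists over bases in either), ICM with TE was the closest of 45 pairs over all ends, with 0.576, and ranked 29 of 45 on chromosome 14, with 0.281.

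**Figure D5:**
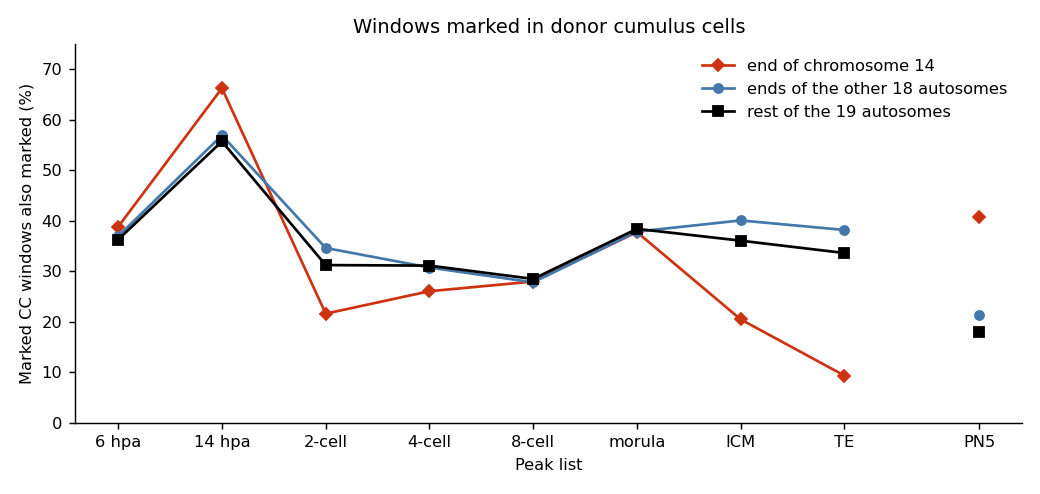
Share of the 1-kb windows marked in CC that were also marked in each later list (y axis, %), for the end of chromosome 14, the ends of the other 18 autosomes and the rest. PN5, set apart, is a fertilized embryo and not a later stage of the SCNT series. The chromosome 14 end falls to 9.34% in TE, while the other ends stand at 38.2%.

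Of the peak length in the ends, 73.7% lay in CC peaks at 6 hpa (57.6% in the rest), 70.1% at 14 hpa (56.3%), 71.3% at 2-cell (54.7%), 65.2% at 4-cell (42.8%), 61.2% at 8-cell (37.5%), 64.2% in the morula (44.4%), 65.2% in the ICM (50.6%) and 64.2% in the TE (50.6%). The share of an end exceeded that of its own rest in 14 to 16 of 19 autosomes for each of these lists. Windows newly marked at 6 hpa, with no mark in CC, made up 23.9% of the 6 hpa windows in the ends and 40.1% in the rest, or 27.5% in the ends without chromosome 14. A larger covered share in CC by itself raises such an overlap. Divided by the covered share of CC, the overlap over these 8 lists was 3.56 to 4.29 in the ends. The quotient was 4.33 to 6.65 in the rest and 4.07 to 5.16 in the ends without chromosome 14. In each list it was lower in the ends, with or without that chromosome. The overlap cannot exceed the whole peak length, so the larger CC share gives the quotient a lower ceiling in the ends. It therefore does not rank the ends against the rest.

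In PN5, 62.1% of the peak length in the ends lay in CC peaks, against 30.6% in the rest, and 52.0% without chromosome 14. Divided by the covered share of CC, the overlap was 3.62 in the ends, 3.85 in the ends without chromosome 14 and 3.53 in the rest. The quotient again has a lower ceiling in the ends, so it does not rank them against the rest. Whether the higher overlap came from the higher CC coverage was not tested. At the matched late 1-cell stage, 14 hpa SCNT embryos had 8.24 Mb of covered end sequence and PN5 zygotes 4.27 Mb, a ratio of 1.93 (1.86 to 2.00), against 1.59 in the rest and 2.07 without chromosome 14. The 14 hpa end was the longer one on 16 of 19 autosomes, from 0.88 on chromosome 17 to 4.04 on chromosome 1. It was above the ratio of its own rest on 13 of 19, with a median of 1.89 against 1.53. Of the 14 hpa length 36.4% lay in PN5 peaks, and 70.3% of the PN5 length was inside 14 hpa peaks, where the rest had 29.9% and 47.6%. Divided by the covered share of the other list, both were 4.82 in the ends and 5.62 in the rest, and 5.77 in the ends without chromosome 14. The ceiling is lower in the ends here too, so these values do not rank the ends against the rest.

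Genes followed the position of the mark. The ends held 633 protein-coding genes of GENCODE M21 with at least 50% of the body inside, or 11.2 per Mb against 8.62 in the rest. At least 50% of the gene body was covered in CC for 90 of them (14.2%), where 3.8% of genes outside were, and 62 of the 90 lay among the 63 genes of the chromosome 14 end. Without that chromosome 28 of 570 genes remained (4.91%). At 6 hpa 34 genes were covered to this extent and at 14 hpa 69 (5.37% and 10.9%, beside backgrounds of 3.22% and 2.65%), of which 16 and 50 on chromosome 14. At 2-cell and 4-cell 13 and 10 genes were (2.05% and 1.58%), none of them on chromosome 14, beside backgrounds of 1.61% and 2.09%. The counts were 5 at 8-cell, 13 in the morula, 14 in the ICM, 13 in the TE and 34 in PN5. They made up 0.790%, 2.05%, 2.21%, 2.05% and 5.37%, beside backgrounds of 2.13%, 1.51%, 0.912%, 0.748% and 1.88%. Of these genes 2, 10, 1, 0 and 18 lay on chromosome 14. Without that chromosome 8-cell and morula had 3 of 570 genes each (0.526%), the ICM and TE 13 each (2.28%) and PN5 16 (2.81%). These 570 genes include 9 gene models packed into the satellite remnant of chromosome 9. Those 9 averaged 87.7% covered at 2-cell, 80.7% in the ICM, 81.1% in the TE and 85.4% in PN5. The counts in these 4 lists thus rest in large part on 1 locus and do not show marking of genes over the 18 ends. Over all ends, under the stricter limit of −log10 q of at least 2, the PN5 count was 17 and the 6 hpa count 24, where CC kept 88. All 63 genes of the chromosome 14 end carry provisional names (60 starting with Gm, 3 ending in Rik), and near-identical copies among them cannot be told apart by reads that fit several.

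Vomeronasal receptors, the pheromone receptors of the accessory olfactory system, were the family with the clearest donor mark outside chromosome 14. The 13 Vmn1r genes of the ends, 10 of them on chromosome 7, were covered on average at 70.6% of the body in CC. By 6 hpa the mean was 22.9%, by 14 hpa 33.4% and by 2-cell 11.96%, and none had a covered base in PN5. The 195 Vmn1r genes elsewhere averaged 47.8% in CC and 7.29% in PN5. Vmn1r62 was covered whole in CC, 46.7% at 6 hpa, 45.4% at 14 hpa and not at all at 2-cell. Vmn1r64 was covered whole in CC and at 6 hpa, 27.6% at 14 hpa and 37.9% at 2-cell, and had no covered base in the ICM, TE or PN5. Its 6 hpa coverage was 0 when only peaks with a −log10 q of at least 2 (the caller's q value, the false discovery rate of a peak) were kept. Vmn1r61 and Vmn1r59 were at 90.4% and 86.3% in CC and at 48.6% and 38.9% at 14 hpa. The neighbouring Gm5065 was at 94.1% in CC, 59.9% in both 1-cell SCNT lists, 42.0% at 2-cell and 0 in PN5. The only Vmn2r gene in the ends was at 51.0% in CC and 16.1% at 14 hpa, and the 2 olfactory receptor (Olfr) genes averaged 3.57% in CC.

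Zinc finger genes named Zfp, many of which encode DNA-binding repressors, numbered 12 in the ends. At least 50% of the body was covered for 1 of the 12 in CC, 2 in the ICM and 2 in the TE. Outside the ends this held for 3.8%, 0.912% and 0.748% of all protein-coding genes, and counts this small carry little weight. The 12 Zfp genes of the ends averaged 12.5% in CC, 16.3% at 6 hpa, 3.68% at 14 hpa, 4.75% at 2-cell, 20.1% in the ICM, 21.6% in the TE and 2.35% in PN5, and the 376 elsewhere averaged 16.9% in CC, 13.7% in the ICM and 14.4% in the TE. The medians of the 12 were 3.99% in CC, 13.9% in the ICM and 11.8% in the TE, and without Zfp263 and Zfp524 the means were 8.71%, 10.6% and 9.94%. Zfp263 was at 54.6% in CC, had no covered base at 14 hpa or 2-cell, and was at 16.9% in the morula, 74.8% in the ICM and 88.0% in the TE. Zfp524 was at 8.74% in CC and at 37.6%, 60.1% and 71.7% in the morula, ICM and TE. The 502 genes outside the named families averaged 2.82% in CC and 5.38% in PN5, below the 3.47% and 6.17% of such genes elsewhere.

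By mean coverage over the 10 lists, 8 of the 10 highest genes were gene models inside the satellite remnant of chromosome 9. Gm10718 was covered whole in 9 lists and 93.5% in the morula, and Gm10720 was at 98.1% or more in 9 lists and at 0 in the morula. Gm10721 was covered whole in 8 lists, with 44.7% at 8-cell and 27.6% in the morula. Across the remnant the covered share was 86.0% in CC, 64.9% at 6 hpa, 78.0% at 14 hpa, 80.1% at 2-cell, 54.3% at 4-cell, 34.6% at 8-cell, 23.8% in the morula, 70.9% in the ICM, 71.5% in the TE and 74.6% in PN5. The 8-cell and morula lists were thus the low ones, and PN5 was below CC, 2-cell and 14 hpa. The satellite arrays themselves are gaps in the assembly. Reads from them may have been placed on this remnant, which was not tested, so its coverage need not describe chromosome 9 alone. The other 2 of the 10 were Gm11808 on chromosome 4, at 0 in CC and PN5 and at 51.6% to 100% in the 8 SCNT lists, with 0 at 6 hpa under the stricter q limit, and Sfi1. Sfi1, at chr11:3131850-3193463, was covered at 98.9% in CC, 97.8% at 6 hpa, 98.8% at 14 hpa, 95.6% at 2-cell, 80.6% at 4-cell, 33.9% at 8-cell, 19.6% in the morula, 0.167% in the ICM, 0.0941% in the TE and 51.1% in PN5. Sfi1 was the one well-characterised gene in this set. The CC peak that covers much of it and runs on into Drg1 had 0.594% of its words repeated in the assembly.

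The 5 genes with the largest surplus of PN5 over CC had no donor peak, and choosing by that surplus favours such genes. Nudt16l1 was covered whole in PN5 and not at all in the other 9 lists. AI837181 was at 84.3% in PN5 and 10.6% at 6 hpa. Aebp1, which encodes a secreted carboxypeptidase-like protein of the extracellular matrix, was at 57.0% in PN5, 12.2% at 6 hpa and 6.74% at 14 hpa. Rin1, a Ras effector, was at 54.4% in PN5 and 17.2% at 6 hpa, and Actn3, the alpha-actinin of fast muscle fibres, was at 48.9% in PN5 and between 6.58% and 12.5% from 6 hpa to 8-cell. All 5 had no covered base in CC, the morula, the ICM or the TE. When only peaks with a −log10 q of at least 2 were kept, the PN5 coverage of Nudt16l1 and Rin1 was 0 and that of Aebp1 was 10.6%, while those of AI837181 and Actn3 did not move.

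Single stretches showed the same classes. They were counted in the ends only, so their numbers do not show whether a class is commoner here than elsewhere. The longest stretches covered in all 10 lists were chr12:4800851-4807921, intergenic, 9.62 kb from Sf3b6 and 99.8% soft-masked, and chr12:5050216-5056662, intergenic, 2.82 kb from Atad2b. They were followed by chr13:5278073-5283920, intergenic and with 94.8% of its words repeated, by chr9:3069870-3075594, and by chr16:3647831-3653091, the source of the chromosome 16 piece above, with 3.92% of words repeated. In all 942 such stretches came to 808 kb, of which 38.7% lay in the first 500 kb and 9.16% on chromosome 14. The longest CC peak, chr11:3149497-3200063, ran over introns of Sfi1 and into Drg1, was covered at 96.1% or more up to 2-cell, and at 1.56% in the ICM, 1.46% in the TE and 58.3% in PN5. The next were chr7:3018815-3068329, nearly all intergenic, at 43.0% at 6 hpa and 68.1% at 14 hpa, and chr14:5277736-5324882, the source of the chromosome 14 piece, at 34.9% and 71.5%. They were followed by chr16:3231584-3275557, at 40.3% and 80.2%, and by chr7:5891230-5931556, at 30.7% and 45.6%, which lies 6.69 kb from Vmn1r64 and was at 4.88% in PN5. All 5 were covered more at 14 hpa than at 6 hpa.

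Stretches covered in CC, 6 hpa, 14 hpa and 2-cell with no PN5 peak numbered 1913 and came to 823 kb, of which 42.8% lay in the first 500 kb. These too were counted in the ends only, without a matching count in the rest. The longest, chr11:3135894-3143156 in Sfi1, had no covered base in the ICM or TE. The second, chr9:3155548-3158920, in an intron of the transcript 4930433N12Rik, was at 77.0% at 4-cell, 80.4% in the morula, 14.1% in the ICM and 30.8% in the TE, and the third, chr7:5362467-5365668, lay 1.78 kb from Gm5065 and was at 34.1% in the ICM. The next 2, chr18:3008126-3011262 and chr13:3425005-3428118, both intergenic, were still covered at 98.5% or more in all later SCNT lists. Stretches covered in PN5 alone, again counted in the ends only, numbered 1329 and came to 657 kb, of which 11.3% lay in the first 500 kb. The longest were chr16:4938304-4942487 over Nudt16l1 and Anks3, 63.96% exonic, chr17:5010843-5014823 in an intron of Arid1b, a chromatin remodelling subunit gene, and chr11:5195650-5198968 in Kremen1, 97.4% intronic.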

How the data were processed

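The authors trimmed reads with cutadapt 1.16, aligned them to mm10 with BWA, pooled the replicates of a stage with SAMtools, removed duplicates and downsampled every pool to 1 common number of reads with Picard, and called broad peaks with MACS2 over pooled input. A mapping quality filter is not given in the sources used here. Each deposited list holds peak positions, the ratio of signal to input (fold enrichment) and −log10 q, the last 2 as the authors' caller wrote them, and both depend on the pooled input. Downsampling sets the lists to like depth, so the number of reads behind 1 peak is not known here.

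Overlapping peaks of a list were merged, and covered bases were counted in 1-kb windows over the 19 autosomes (Python 3.11.15, NumPy 2.4.6, SciPy 1.17.1, numba 0.67.0). Windows with under 50% assembled bases were left out of window counts. Covered shares of the ends were divided by those of the rest of the same autosomes. Wilson intervals were used for shares and a normal approximation on the log scale for ratios. The functions were checked on simulated data. Gene bodies came from GENCODE M21 and sequence from GRCm38. Named genes were the 10 of highest mean coverage over the lists and the 5 with the largest difference of CC and PN5 in each direction, with families given by prefix, and members of the Zfp and Vmn1r families named beside them were chosen after their values were seen, as were chromosomes 5, 12 and 16. Named stretches were the longest of each class, and named autosomes the 3 highest and 3 lowest in CC. The ends, lists of genes and tests were chosen with earlier results of these data known. Replicate lists were not analysed here.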

Additional observations from a re-analysis of the deposited data

How the results depend on the processing

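The ratio of ends to rest in covered share depended on where the end was set and on chromosome 14, and the cause of these changes was not tested. With only peaks of −log10 q of at least 2 the ratios were 2.09 (CC), 1.72 (6 hpa), 1.76 (14 hpa), 1.32 (8-cell), 1.42 (morula), 1.54 (ICM), 1.49 (TE) and 1.61 (PN5). With lists trimmed to equal autosomal length the ratios were 2.19 (CC), 1.67 (6 hpa), 1.76 (14 hpa), 1.29 (8-cell), 1.49 (morula), 1.6 (ICM) and 1.51 (TE). Without the first 100 kb the ratios were 1.83 (CC), 1.49 (6 hpa), 1.61 (14 hpa), 1.46 (2-cell), 1.19 (4-cell), 1.159 (8-cell), 1.29 (morula), 1.41 (ICM), 1.33 (TE) and 1.33 (PN5). With ends from 3.0 to 4.0 Mb the ratios were 2.89 (CC), 2.41 (6 hpa), 2.41 (14 hpa), 2.33 (2-cell), 1.65 (4-cell), 1.53 (8-cell), 1.69 (morula), 1.998 (ICM), 1.89 (TE) and 1.84 (PN5). With ends from 3.0 to 9.0 Mb the ratios were 1.76 (CC), 1.42 (6 hpa), 1.56 (14 hpa), 1.42 (2-cell), 1.17 (4-cell), 1.15 (8-cell), 1.31 (morula), 1.43 (ICM), 1.37 (TE) and 1.28 (PN5). By share of windows at least 50% covered the ratios were 2.05 (CC), 1.67 (6 hpa), 1.76 (14 hpa), 1.55 (ICM), 1.47 (TE) and 1.46 (PN5). As the median over autosomes the ratios were 1.59 (CC), 1.36 (6 hpa), 1.49 (14 hpa), 1.38 (2-cell), 1.08 (4-cell), 1.02 (8-cell), 1.28 (morula) and 1.1 (PN5). Without chromosome 14, chosen after seeing the data, the ratios were 1.56 (CC), 1.31 (6 hpa), 1.4 (14 hpa), 1.41 (2-cell), 1.1 (4-cell), 1.04 (8-cell), 1.17 (morula), 1.4 (ICM) and 1.08 (PN5). With only end windows lacking a repeated 100-base word and the rest unfiltered, chosen after seeing the data, the ratios were 0.929 (CC), 0.858 (6 hpa), 0.852 (14 hpa), 0.874 (2-cell), 0.697 (4-cell), 0.687 (8-cell), 0.72 (morula), 0.776 (ICM), 0.846 (TE) and 0.767 (PN5). Without chromosome 14 and the first 500 kb, chosen after seeing the data, the ratios were 1.12 (CC), 0.941 (6 hpa), 1.09 (14 hpa), 1.08 (2-cell), 0.922 (4-cell), 0.907 (8-cell), 1.01 (morula), 1.2 (ICM), 1.19 (TE) and 0.884 (PN5). With the rest weighted to the GC classes of the ends the ratio was 1.67 (6 hpa). With only peaks of −log10 q of at least 2, 77.7% of the 6 hpa peak length in the ends lay in CC peaks, 65% of the 8-cell peak length in the ends lay in CC peaks, 63.4% of the ICM peak length in the ends lay in CC peaks and 66.2% of the PN5 peak length in the ends lay in CC peaks. With lists trimmed to equal autosomal length, 55.5% of CC windows in the ends were unmarked at 6 hpa, 51% of CC windows in the ends were marked at 14 hpa, 39.5% of CC windows in the ends were marked at 2-cell and 31.9% of CC windows in the ends were marked in PN5. Without chromosome 14, chosen after seeing the data, 56.9% of CC windows in the ends were marked at 14 hpa, 34.6% of CC windows in the ends were marked at 2-cell, 21.4% of CC windows in the ends were marked in PN5, 69.7% of the 6 hpa peak length in the ends lay in CC peaks, 64.6% of the 14 hpa peak length in the ends lay in CC peaks, 67.5% of the 2-cell peak length in the ends lay in CC peaks, 59.9% of the 4-cell peak length in the ends lay in CC peaks, 55% of the 8-cell peak length in the ends lay in CC peaks, 58.1% of the morula peak length in the ends lay in CC peaks, 61.6% of the ICM peak length in the ends lay in CC peaks, 62.1% of the TE peak length in the ends lay in CC peaks, 52% of the PN5 peak length in the ends lay in CC peaks and the ratio of 14 hpa to PN5 length was 2.07. With windows called marked by any covered base, 44.4% of CC windows in the ends were unmarked at 6 hpa, 70.9% of CC windows in the ends were marked at 14 hpa, 44.4% of CC windows in the ends were marked at 2-cell and 35.8% of CC windows in the ends were marked in PN5. A further 27 values under these alternatives stayed within the counting interval of the reported value. No paired analysis was possible because the authors had merged all replicates of a stage into 1 peak list. With 1 pooled list for each stage, intervals cover counting error only.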

Other observations

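The peak of highest fold enrichment over input inside the ends was the same place in 5 lists, chr17:4626165-4626598 or within a few bases of it, an intergenic site 367.7 kb from Arid1b that is 85.0% soft-masked and has no repeated 100-base word. Its fold enrichment was 53.4 at 14 hpa, 8.87 at 4-cell, 61.9 at 8-cell, 12.4 in the ICM and 27.1 in the TE. In the 2-cell and morula lists the highest peak was at chr9:5117155-5117331, 181.2 kb from Casp1, with a fold of 56.0 and 149.5, and it is a low-complexity sequence of 1.13% GC. In CC and at 6 hpa it lay near the start of chromosome 10, with a fold of 6.73 and 20.4, and in PN5 at chr13:3963262-3967048, 17.9 kb from Ucn3, with a fold of 4.95. The median fold of peaks in the ends lay between 2.73 and 3.09 in all lists.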
